A study of Chelonus formosanus with 6 samples.

Results

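Among the odour carriers transcribed in the head of the braconid wasp Chelonus formosanus, 5 unigenes with opposite sex differences were followed: OBP13 (TRINITY_DN25006_c1_g1), odorant binding protein 2 (TRINITY_DN26689_c0_g6), general odorant-binding protein 56d (TRINITY_DN25379_c2_g1), the odorant-binding protein of cluster DN26499 (TRINITY_DN26499_c1_g12) and a B1 protein-like unigene (TRINITY_DN26491_c0_g4). A unigene is a cluster of assembled transcripts that stands for a gene. The 5 were chosen by their female against male difference in these same libraries, so that difference is given as a description with no test. They are 5 of 41986 unigenes in the table and 5 of 19 whose description names an odorant-binding, pheromone-binding or B1 protein. Messenger RNA of whole heads was sequenced in 6 libraries, 3 of females and 3 of males, all labelled day 1, with no treatment named. The labels do not say how many animals went into a library or whether the libraries are separate animals, so p-values measure only the spread between these libraries, which may be technical. The stated purpose of the study was the choice of reference genes for quantitative PCR.

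Insect odorant-binding proteins are small soluble proteins that support cells secrete into the fluid around the sensory neurons of antennal hairs. They bind hydrophobic odorants and pheromones and carry them to receptors in the neuron membrane, among them the odorant receptors with their coreceptor Orco. Members of the family are also made outside sense organs. B1 proteins, of the same structural family, were named in the mealworm beetle Tenebrio molitor, where male accessory glands secrete them.

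Total counts ran from 17937390 to 19517887 per library. Markers of the head were abundant. Orco stood at 334 to 397 CPM (counts scaled to a common library size) in females and at 158 in each male library, and the most abundant rhodopsin, the light receptor of the eye, at 6005 to 7056 CPM over all libraries. The summed level of the head and antenna markers, none of 12 at 0 throughout, was 8668 to 9489 CPM in females and 7705 to 8851 CPM in males. Muscle markers (47 unigenes) summed to 16336 to 22944 CPM in females and 23806 to 26981 CPM in males, and fat body markers (10) to 6268 to 6925 and 7920 to 8020 CPM. Salivary and venom gland markers (25) went the other way, at 7594 to 8077 CPM in females and 6761 to 7153 CPM in males, and glial markers (8) were at 4603 to 4713 and 4775 to 5113 CPM. Single markers did not always follow these sums in the edgeR test described below. Of 11 tested head and antenna markers, 3 passed, all higher in females, and of 11 tested neuron markers 1 passed, higher in females. Of 7 tested fat body markers, 2 passed higher in females and 1 in males. Of 17 for salivary and venom gland, 1 passed, higher in males. Of 34 for muscle, 4 passed, all higher in males, and of 8 for glia 0 passed. Testis markers (7) were low, at 21.8 to 22.3 and 22.5 to 24.1 CPM, the 1 ovary marker stood at 2.22 to 3.65 and 1.34 to 1.52 CPM, and the words for accessory gland proteins matched 0 unigenes. In whole heads, fewer cells of a type and less RNA per cell cannot be told apart, and the part of these marker differences in the results was not tested. Unigenes with a best hit in a vertebrate took 3.11% to 3.69% of the counts, and none of the 5 had such a hit.

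By annotation the 5 were a mixed group. The best hits of 4 lay in other braconid wasps: odorant binding protein 2 in Macrocentrus cingulum, 56d in Microplitis demolitor, the DN26499 protein in Aphidius gifuensis and the B1-like protein in Cotesia chilonis. OBP13 had its best hit in the scarab beetle Holotrichia parallela. The table gives the pheromone and general odorant-binding domain for 2 of the 5, odorant binding protein 2 and the B1-like unigene, and no domain for the other 3. For the B1-like unigene it also names general odorant-binding protein 19d of Drosophila melanogaster as the closest reviewed protein.

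Female heads held more of the first 2 carriers. OBP13 stood at 298, 311 and 381 TPM (a share of all transcripts, corrected for transcript length) in females 1 to 3 and at 53.7, 54.7 and 40.8 TPM in males 1 to 3. Its lowest female library was 5.45 times its highest male library. Female libraries averaged 189 ± 25.9 CPM and male libraries 30.5 ± 3.44 CPM (SD, n = 3 each), a log2 difference of 2.63 with a standard error of 0.12. It was the least abundant of the 5 in males, with 504 to 600 counts per male library.

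Odorant binding protein 2 was far more abundant, at 5356, 4797 and 4681 TPM in the female libraries and 1386, 1361 and 1149 TPM in the male libraries. All female libraries lay above all male libraries, the closest pair being 3.38 times apart. The log2 difference was 1.83 with a standard error of 0.10, or 3.56-fold. Among all unigenes it ranked 12 to 14 by TPM in the female libraries and 76 to 96 in the male libraries.

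Male heads held more of the other 3. General odorant-binding protein 56d of cluster DN25379, named after a Drosophila gene, stood at 211, 182 and 234 TPM in females and at 947, 951 and 984 TPM in males. The male libraries lay close together, with a coefficient of variation of 2.15%, against 12.4% in females. The log2 difference was -2.30 with a standard error of 0.09 (4.93-fold).

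The odorant-binding protein of cluster DN26499 stood at 87.9, 79.1 and 87.3 TPM in females and at 325, 266 and 321 TPM in males. Its lowest male library, male 2, was still 3.03 times its highest female library. The log2 difference was -1.94 with a standard error of 0.09 (3.85-fold).

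The B1-like unigene stood at 851, 662 and 780 TPM in females and at 4547, 4686 and 4413 TPM in males. Its lowest male library was 5.19 times its highest female library. The log2 difference was -2.70 with a standard error of 0.10 (6.49-fold). It ranked 16 to 21 among all unigenes by TPM in the male libraries and 144 to 196 in the female libraries.

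**Figure D1:**
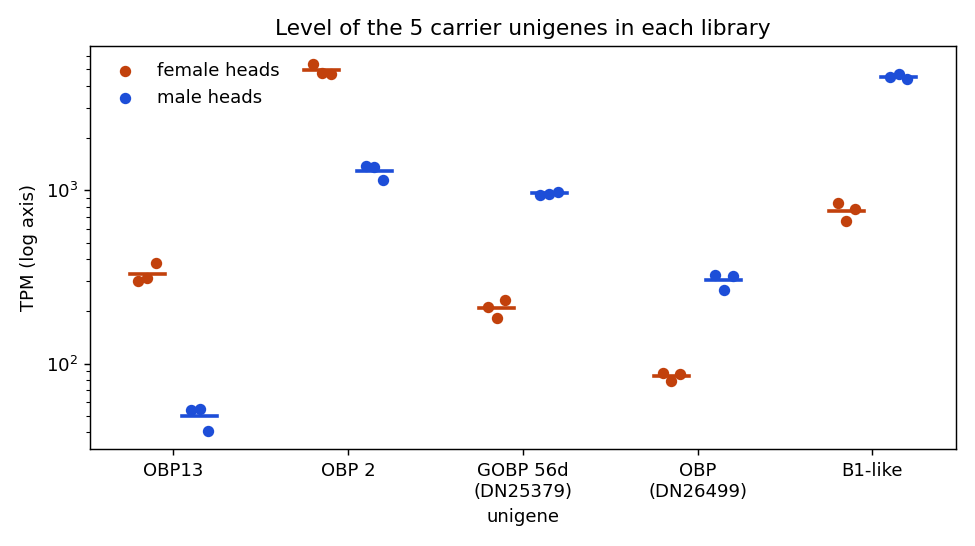
TPM (log axis) of the 5 carrier unigenes in the 3 female and 3 male libraries; points are libraries and lines are means. OBP13 and odorant binding protein 2 lie higher in all female libraries, and the other 3 higher in all male libraries, with no overlap for any of the 5.

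All 5 were thus without overlap between the sexes, as 17.3% of all 21196 tested unigenes were, and the choice of the members fixed this. The fold changes in the authors' deposited table were close to these, from 3.58 for odorant binding protein 2 to 6.45 for the B1-like unigene. Coefficients of variation of the CPM within a sex ran from 1.75% (B1-like, males) to 13.7% (OBP13, females).

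The order of the 5 by level turned over between the sexes. In every female library it ran, from the highest TPM, odorant binding protein 2, B1-like, OBP13, 56d and the DN26499 protein. In every male library it ran B1-like, odorant binding protein 2, 56d, the DN26499 protein and OBP13. No neighbours in either order overlapped over the 3 libraries.

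Within single libraries, where no scaling enters, odorant binding protein 2 was 6.29, 7.24 and 6.0 times the B1-like unigene in the females by TPM. In the males the B1-like unigene was 3.28, 3.44 and 3.84 times odorant binding protein 2. OBP13 was 1.41, 1.71 and 1.63 times 56d in the females, and 56d was 17.6, 17.4 and 24.1 times OBP13 in the males.

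As a sum, the 5 moved far less than each alone. Their summed TPM was 6804, 6031 and 6163 in the females and 7258, 7318 and 6908 in the males, or 0.603% to 0.732% of all transcripts. The male sums lay above the female sums by a small margin. The 5 were picked for opposite differences. The change of order, the ratios above and the partial cancelling in the sum thus follow largely from that choice. The small margin holds for TPM only. By CPM, not corrected for length, odorant binding protein 2 averaged 1641 in females and 461 in males, and the B1-like unigene 586 and 3802.

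The pair higher in females made up 15.2% ± 0.39 of the summed TPM of the 19 odorant-binding unigenes in females and 3.78% ± 0.06 in males (SD, n = 3). The trio higher in males made up 3.06% ± 0.30 in females and 16.4% ± 1.33 in males. Most of each share came from a single unigene, odorant binding protein 2 in females with 14.3% and the B1-like unigene in males with 12.8%. The summed TPM of all 19 was 34586 ± 1255 in females and 35653 ± 3201 in males. By counts, in which longer transcripts weigh more, the trio made up 6.23% ± 0.62 in females and 31.0% ± 1.52 in males, and the summed count of all 19 was 207312 ± 4435 in females and 249687 ± 10695 in males.

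**Figure D2:**
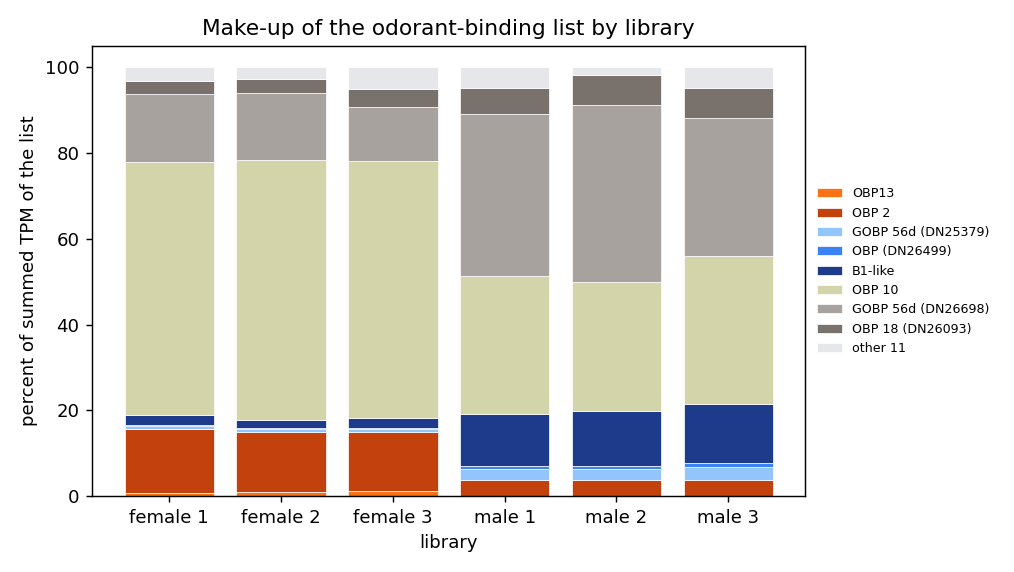
Stacked bars give the percent of the summed TPM of the 19 odorant-binding unigenes taken by each member and by the 3 most abundant others, per library. The female-high pair holds 15.2% of the female libraries on average and the male-high trio 16.4% of the male libraries.

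The members' own sex contrast had chosen them, while the other 14 odorant-binding unigenes could be tested. All 14 passed the filter on low counts. By edgeR's quasi-likelihood test, with p adjusted over all tested unigenes and a threshold of 0.05, females had the higher level of 2 and males of 3, while 9 did not pass. Those not passing include all 5 with a vertebrate best hit. Without these 5, 2 were higher in females, 3 in males and 4 did not pass. Over all tested unigenes 2.8% passed, 1.69% higher in females and 1.11% higher in males. The median log2 difference of the 14 was -0.14, and 0.24 over the 9 of them without a vertebrate hit.

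A second unigene described as general odorant-binding protein 56d, TRINITY_DN26698_c1_g2, was also higher in males and much more abundant. It stood at 5681, 5304 and 4239 TPM in females and at 14388, 15293 and 10231 TPM in males, with female 3 and male 3 lowest in their sex (2.62-fold, adjusted p = 0.000207). Its log2 difference was -1.39 ± 0.14 (SE), beside -2.30 ± 0.09 for the 56d unigene of cluster DN25379. Odorant-binding protein 18 (TRINITY_DN26093_c0_g11) was 2.12-fold higher in males (1214 ± 148 and 2393 ± 158 TPM, adjusted p = 0.000101).

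Odorant-binding protein 10 (TRINITY_DN25372_c3_g9), the most abundant carrier of the female libraries, went the other way. It stood at 20702 ± 529 TPM in females and 11469 ± 659 TPM in males (1.69-fold by counts, adjusted p = 0.00053). The authors' deposited table gives it a log2 fold change of 0.77 and does not mark it significant. Odorant binding protein 3 (TRINITY_DN19776_c1_g1), at 21.3 ± 0.95 and 11.7 ± 1.40 TPM, was 1.70-fold higher in females (adjusted p = 0.0187). That call was lost without female 2, male 1 or male 2 in turn, with adjusted p up to 0.131. The authors' deposited table also gives 0.77 for it and does not mark it significant, while it marks the 3 carriers higher in males here. The threshold behind that mark is not given, and it may differ from the one used here, which had no fold minimum. Among the 19 carriers the smallest marked log2 fold change in size was -1.07 and the largest unmarked one 0.77.

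The choice of the 5 had no stated threshold. On the log2 scale the smallest member differences were 1.83 on the female side and -1.94 on the male side. Just outside in size were odorant binding protein 3 at 0.76 and the 56d unigene of cluster DN26698 at -1.39. A second odorant-binding protein 18 unigene, TRINITY_DN27384_c0_g1, lay within the members' range at -2.62 ± 0.41 (SE), with only 1.56 ± 0.65 TPM in females and 9.02 ± 2.81 TPM in males (adjusted p = 0.00548), and was not among the 5.

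Of the 9 carriers that did not pass, odorant-binding protein 14 (TRINITY_DN26093_c0_g9) had the smallest p, at 20.9 ± 0.31 TPM in females and 12.8 ± 1.72 TPM in males (1.35-fold by counts, adjusted p = 0.125). The most abundant of the 9 were 3 with mouse best hits, which carry the lipocalin domain of the unrelated vertebrate proteins of the same name. They were the odorant binding protein I f-like unigene (450 ± 142 and 463 ± 240 TPM), odorant-binding protein 1b (269 ± 109 and 271 ± 151 TPM) and odorant-binding protein 1a (244 ± 66.1 and 253 ± 126 TPM). In all 3, male 2 was the lowest library and the sexes overlapped. Names and domains differed elsewhere too, since the unigene named odorant binding protein 1 (TRINITY_DN26541_c1_g1) carried a trypsin domain in the table and A10 (TRINITY_DN25513_c0_g4) that of the chemosensory proteins.

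**Figure D3:**
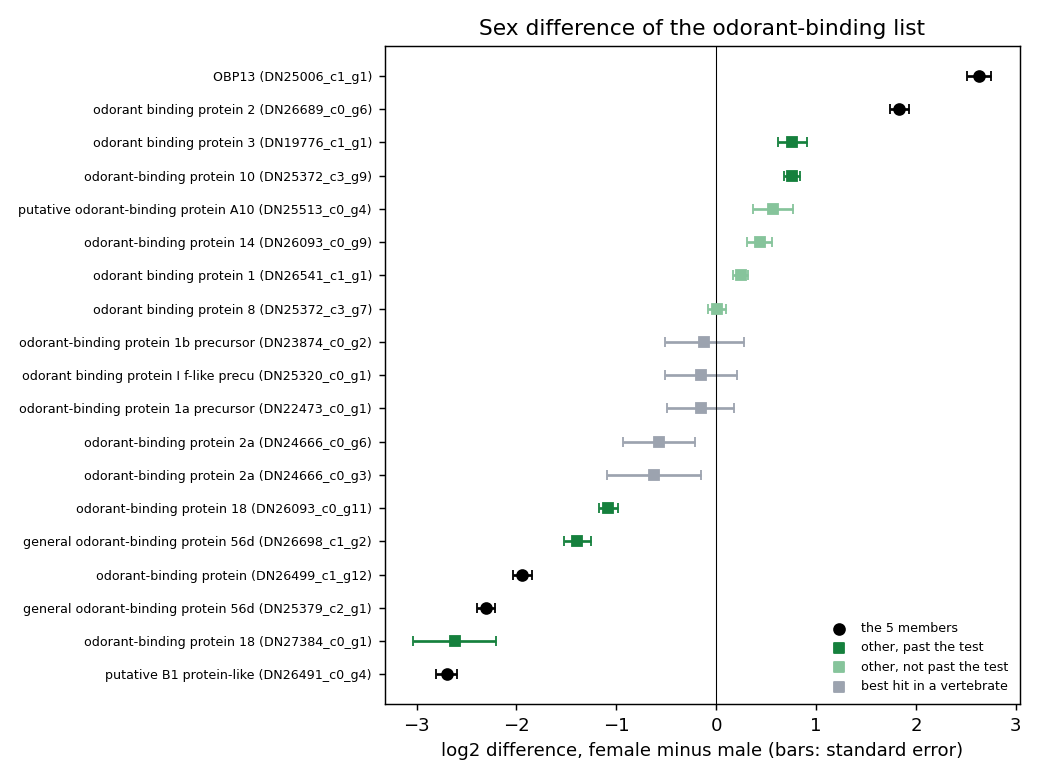
Log2 difference (female minus male) of the 19 odorant-binding unigenes with standard errors from edgeR; black circles are the 5 members, dark green squares other unigenes past the test, light green squares others not past it, and grey squares unigenes with a vertebrate best hit. The members lie at 2.63 and 1.83 on the female side and from -1.94 to -2.70 on the male side.

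What the sex contrast did not use is the structure of the unigenes. The deposited length is that of the longest transcript, 1181 bases for OBP13, 748 for odorant binding protein 2, 1135 for 56d, 580 for the DN26499 protein and 1234 for the B1-like unigene, from 3, 4, 5, 1 and 7 assembled transcripts. The ratio of counts to TPM holds the mean length of the transcripts that the reads were assigned to, weighted by their abundance. It was calibrated on 869 to 1012 unigenes per library with a single transcript, at least 1000 bases and at least 1000 counts. For these same unigenes it gave lengths back with a median error of 0.16 to 0.20 bases. All members but the B1-like unigene had shorter mean transcripts. OBP13 in males and the DN26499 protein in females also had fewer counts, so that error is not the accuracy for the members.

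By this measure 3 members were of similar, short length. Odorant binding protein 2 came to 602 to 603 bases in all libraries and 56d to 596.3 to 597.0 bases, beside the single transcript of 580 bases of the DN26499 protein. For 56d the longest transcript, at 1135 bases, was thus far longer than the mean one. OBP13 was longer, 853, 873 and 871 bases in females and 828, 875 and 897 bases in males.

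For the B1-like unigene the mean length was 1080.0, 1071.1 and 1075.9 bases in females and 1088.0, 1088.2 and 1085.8 bases in males, a shift of 11.6 bases with no overlap. The exact two-sided permutation test gave p = 0.1, the smallest that 3 against 3 allows, and 0.5 after Benjamini-Hochberg adjustment over the 5 members. The exact p of the other 4 members ran from 0.4 to 0.9. Of 2344 tested unigenes with several transcripts and a mean of at least 1000 counts, 12.2% were likewise without overlap, so a single such member is not a result about the group. Among the other carriers, odorant-binding protein 14 (TRINITY_DN26093_c0_g9) averaged 1056 ± 9.32 bases in females and 1156 ± 41.6 bases in males, also without overlap (exact p = 0.1). It had only 187 to 304 counts per library, below the 1000 asked of the calibration unigenes and of the 2344. Neither the calibration error nor the 12.2% thus applies to it. The low-count odorant-binding protein 18 unigene (TRINITY_DN27384_c0_g1) did not overlap either, with a shift of 0.37 bases. It has a single transcript, so this is no difference in length. The shift lies below the 95th percentile of the calibration error, 0.94 to 1.24 bases per library. Ratios of mean TPM, which do account for length, stood beside the folds by counts at 6.64 against 6.21 for OBP13 and 3.81 against 3.56 for odorant binding protein 2. For the unigenes higher in males they were 4.60 against 4.93 for 56d, 3.59 against 3.85 for the DN26499 protein and 5.95 against 6.49 for the B1-like unigene. TPM is also scaled between libraries otherwise than the counts. All 5 ratios by TPM lay farther toward females, also that of the DN26499 protein with its single transcript. The gaps are thus not a measure of length.

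**Figure D4:**
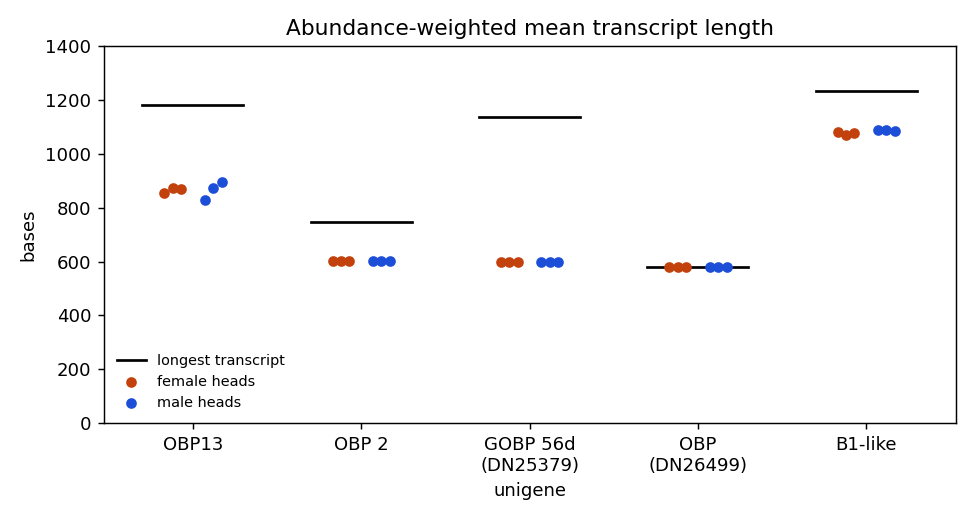
Abundance-weighted mean transcript length in bases for the 5 members in each library (points), beside the length of the longest transcript (black line). The mean for 56d is about 597 bases where the longest transcript has 1135, and the means of the B1-like unigene lie 11.6 bases apart between the sexes.

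Of the 30 estimated counts of the members, 24 were whole numbers to within 1e-06 and 6 were not, in the B1-like unigene (4 libraries) and odorant binding protein 2 (2 libraries). Over all unigenes, 3697 to 3989 of 41986 estimates per library were not whole. An estimate that is not whole can arise where reads match more than 1 unigene, and it does not tell how many reads are shared. The abundant 56d unigene of cluster DN26698 had such estimates in all 6 libraries.

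Each member shares the DN number of its assembly name, here called its component, with other unigenes. Whether these share sequence with the member was not tested. The 5 components held 60 other unigenes, 41 of them tested, with descriptions unlike those of the carriers, such as a T-complex protein 1 subunit beside OBP13 and neurotrimin beside the DN26499 protein. None of the 41 passed edgeR's test, and 6 had an unadjusted p under 0.05. DESeq2 also called 0. Their median log2 difference was -0.05.

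Other genes of odour and taste detection were tested in the same fit. Of 102 odorant receptors, the channels that receive the carried odorants, 37 were higher in females and 5 in males, with a median log2 difference of 0.56 beside 0.00 over all tested unigenes. Female libraries averaged 28.9 ± 6.72 CPM of odorant receptor 13a-like (TRINITY_DN26448_c0_g5) and male libraries 0.127 ± 0.061 CPM (adjusted p = 2.46e-07), and 22c-like (TRINITY_DN26448_c0_g4) was 12.4-fold higher in females. Odorant receptor 46a-like (TRINITY_DN26562_c0_g6) was 4.74-fold and odorant receptor 35 (TRINITY_DN4472_c0_g1) 2.97-fold higher in males. Orco (TRINITY_DN25907_c2_g3) was 2.35-fold higher in females, the direction of OBP13 and odorant binding protein 2 and opposite to that of the other 3 members. How far these differences share a source was not tested.

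Sensory neuron membrane protein 1 (TRINITY_DN25559_c0_g1), a membrane protein needed to detect a pheromone in Drosophila, averaged 799 ± 146 CPM in female and 238 ± 42.7 CPM in male libraries (3.35-fold, adjusted p = 9.78e-05). It was the 1 of 2 of its list past the test. Of 15 ionotropic receptors, 3 were higher in females and 1 in males. Ionotropic receptor 64a (TRINITY_DN25421_c3_g1) was 2.58-fold and glutamate receptor kainate 2 (TRINITY_DN25210_c1_g5) 1.99-fold higher in females, and kainate 5 (TRINITY_DN25840_c3_g5) 2.61-fold higher in males. By description both kainate unigenes are ionotropic glutamate receptors, so this list mixes such receptors with those named for odour detection. Whether the kainate unigenes serve odour or taste was not tested. Of 11 gustatory receptors, 2 were higher in females and 1 in males. Gustatory receptor 6 (TRINITY_DN25303_c0_g1) was 1.57-fold and 28a (TRINITY_DN25538_c1_g2) 2.03-fold higher in females, calls lost in 3 and 4 of 11 settings, and TRINITY_DN26283_c0_g7 was 2.77-fold higher in males.

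Of 39 esterases, glutathione S-transferases and related enzymes that break down odorants among other compounds, 3 were higher in females and 3 in males. A vertebrate best hit was given for 19 of the 39, and of the 20 without one, 3 were higher in females and 2 in males. Esterase FE4-like (TRINITY_DN25390_c3_g7) was at 1846 ± 165 and 843 ± 81.3 CPM (2.19-fold, adjusted p = 0.00011) and a glutathione S-transferase (TRINITY_DN26448_c0_g1) was 3.24-fold higher in females. Venom carboxylesterase-6 (TRINITY_DN25119_c2_g6) was 1.85-fold and esterase FE4 (TRINITY_DN25103_c1_g2) 1.31-fold higher in males, the latter lost in 7 of 11 settings. Takeout (TRINITY_DN26691_c0_g8), of a family of carriers of small lipids, was 1.52-fold higher in females, 1 of 3 tested. An apolipoprotein D-like lipocalin (TRINITY_DN26627_c1_g3) was 1.61-fold higher in females, 1 of 17, or 1 of 8 without vertebrate hits. None of 5 unigenes with Niemann-Pick names (0 by edgeR, 1 by DESeq2) and not the 1 chemosensory protein passed edgeR's test.

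Unigenes with profiles most like the members were sought among 12774 tested unigenes with an informative description, by the root mean square difference of log2(CPM + 0.5) profiles centred on their mean over the 6 libraries. The profile is set mostly by the sex difference that chose the members, so the names are a description. Nearest to odorant binding protein 2 were odorant receptor 4-like (TRINITY_DN24867_c0_g2, distance 0.097), odorant receptor 2a-like (TRINITY_DN24124_c0_g1, 0.124) and sensory neuron membrane protein 1 (0.139). Nearest to OBP13 were odorant receptor 67a-like (TRINITY_DN25583_c0_g2, 0.246), olfactory receptor 58 (TRINITY_DN26229_c1_g6, 0.274) and olfactory receptor 9 (TRINITY_DN26448_c0_g11, 0.276). The 0.5 added before the log shrinks differences at low levels, so a near profile need not mean a near fold. Olfactory receptor 9, at 0.109 CPM in males, was 23.2-fold higher in females, against 6.21-fold for OBP13. Odorant receptor 4-like, at 1.10 CPM in males, was 4.58-fold and odorant receptor 2a-like 3.57-fold higher, against 3.56-fold for odorant binding protein 2.

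On the male side, 56d and the DN26499 protein shared their 2 nearest unigenes. These were pickpocket protein 11 (TRINITY_DN24276_c0_g2), of a sodium channel family with roles in taste in Drosophila, at distances of 0.156 and 0.114, and genetic suppressor element 1-like (TRINITY_DN24939_c0_g5), at 0.164 and 0.132. The third were pickpocket protein 11-like (TRINITY_DN1070_c0_g1, 0.217) for 56d and odorant receptor 46a-like (0.155) for the DN26499 protein. Pickpocket protein 11 averaged 1.32 TPM in females and 5.96 TPM in males, far below the levels of the carriers on the same scale. By edgeR it was 4.86-fold, odorant receptor 46a-like 4.74-fold and genetic suppressor element 1-like 4.16-fold higher in males. The folds of the members were 3.85 for the DN26499 protein and 4.93 for 56d. Nearest to the B1-like unigene were a peroxisomal phytanoyl-CoA dioxygenase (TRINITY_DN25628_c3_g1, 0.202), the member 56d (0.220) and a nose resistant to fluoxetine 6-like unigene (TRINITY_DN25347_c0_g4, 0.309).

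**Figure D5:**
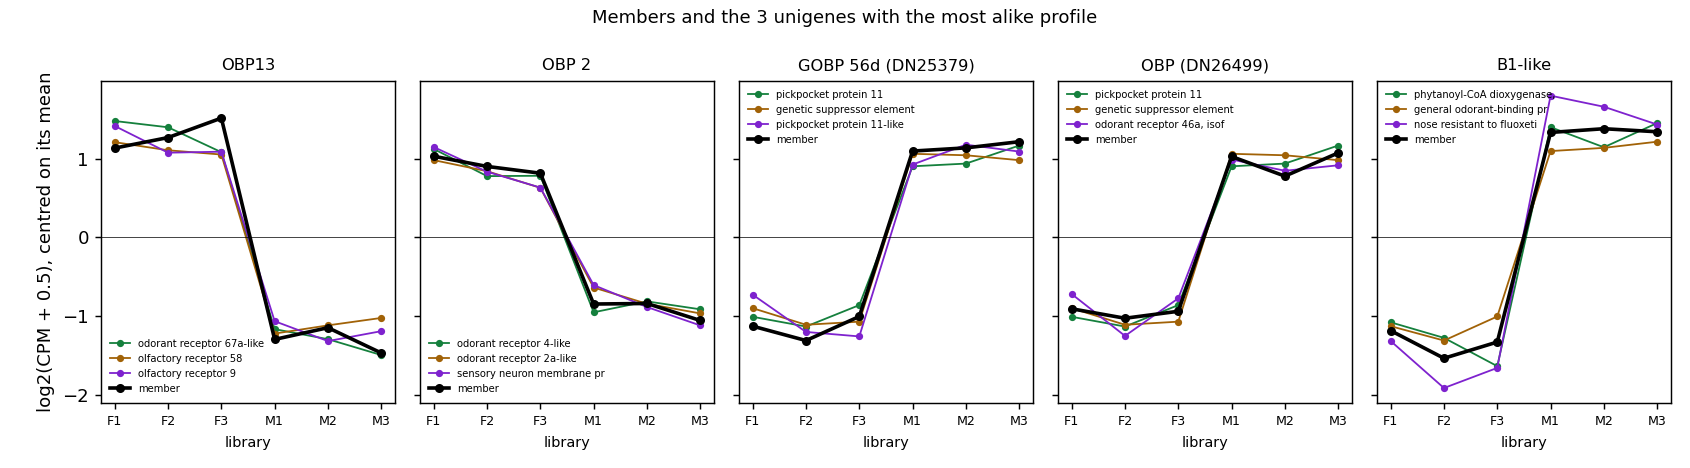
Log2(CPM + 0.5) centred on its mean over females 1 to 3 (F1 to F3) and males 1 to 3 (M1 to M3), for each member (black) and the 3 unigenes with the smallest distance to it (colours). The neighbours of odorant binding protein 2 lie at distances of 0.097 to 0.139 from it, and those of OBP13 and the B1-like unigene farther off, at 0.202 to 0.309.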

How the data were processed

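Per the labels' protocols, poly(A) RNA was sequenced in pairs on an Illumina NovaSeq, cleaned with Cutadapt and assembled with Trinity 2.4.0. Which program counted reads, and which test the authors ran, is not given in the sources used here. The deposited expected counts per unigene and library were rounded here for testing. The deposited TPM, per the file headers a value within each library, gave levels and lengths. The authors' deposited log2 fold change was set beside the values made here, and their deposited p-value was not used. Groups follow the labelled sex, and no batch is labelled.

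Counts were tested with edgeR 4.0.16 in R 4.3.3 (TMM, filterByExpr at 10 counts per library and 15 in total, quasi-likelihood test, Benjamini-Hochberg over 21196 unigenes, threshold 0.05). A standard error is the log2 difference over the root of its F statistic. DESeq2 1.42.0 was an alternative. Only the edgeR and DESeq2 fits were tried on simulated counts with planted log2 differences. The length, share and profile steps were not. Python 3.11.15 with scipy 1.17.1 did the rest.

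Members and word lists were chosen with earlier results of these data known. Named beside the members were carriers past the test, the 3 most abundant and the smallest-p carrier not past it, the 2 smallest adjusted p per direction in other lists, and Orco. A component's other unigenes were counted, and those named as examples were chosen after their values were seen. No member sequence is printed, since none was used here.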

Additional observations from a re-analysis of the deposited data

How the results depend on the processing

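The direction of all 5 members held in every alternative. Leaving out each library moved their log2 differences by less than the spread between replicates, as did the replicate block (2.63, 1.83, -2.31, -1.94 and -2.70 in the order of the opening), DESeq2, other filters and TPM ratios. Summing each assembly cluster, which adds unigenes of other descriptions, gave 0.84 for OBP13, 1.59 for odorant binding protein 2, -0.42 for 56d, -0.32 for the DN26499 protein and -1.81 for the B1-like unigene. Summing both 56d unigenes gave -1.44.

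The 593 unigenes called (358 higher in females, 235 in males) ranged from 357 to 688 when a library was left out (210 to 382 and 144 to 306), with 358 without female 2 and 357 without male 2. Same-numbered female and male libraries did not deviate together (correlations -0.01, -0.06 and -0.02), and 0 of 6 libraries correlated best with their own number, so the numbers were not taken as pairs. The count was 576 under the replicate block, which changed no call of the carriers, and 271 with a log2 difference of at least 1 (164 and 107). DESeq2 called 359 higher in males. Of the other carriers 3 passed with that log2 minimum (0 higher in females), and 1 to 3 were higher in females when a library was left out, 1 of them without female 2, male 1 or male 2. Gustatory receptors ranged from 1 to 3 calls (1 without female 3, male 1 or male 2) and takeout carriers from 1 to 2 (2 without male 3 and by DESeq2). DESeq2 called 1 Niemann-Pick and 2 lipocalin unigenes, and a minimum count of 50 gave 1 Niemann-Pick call. The cause of these shifts was not tested.

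As shares of counts, the female-high pair took 16.8% in females and 3.59% in males, and the male-high trio 6.23% and 31.0%. Counts weigh longer transcripts more. Without vertebrate hits the pair took 15.8% and 3.91%. Among the carriers, depth limits mainly TRINITY_DN27384_c0_g1, with 4 to 50 counts per library, not tested at a minimum count of 50. It also limits the folds of some receptors named above. Odorant receptor 13a-like and olfactory receptor 9 were at 0.057 to 0.163 CPM in the male libraries. Odorant receptor 46a-like was at 0.686 to 1.22 CPM in the female libraries.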
